A study of Mus musculus with 8 samples.

Results

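The proton pump of the lysosome and the proteins of the lysosomal membrane were followed in mouse bone marrow-derived macrophages, cells matured in a dish from progenitors of the marrow. The set holds 30 genes of the 17492 in the deposited table: 8 subunits of the V0 sector of the vacuolar ATPase (V-ATPase), 8 subunits of its V1 sector, 2 accessory proteins and 12 other proteins of the lysosomal membrane. They were chosen by gene symbol, with earlier results of these data known, and 29 were found by the symbol itself. Tmem55b was found as Pip4p1, for which RefSeq lists Tmem55b as a synonym. All 30 had enough counts to be tested.

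Cells of strain C57BL/6 were kept in medium lacking serine and glycine (labelled serine deficiency, 4 libraries) or in normal medium (labelled untreated, 4 libraries). The labels name no genotype, no age or sex of the mice, no stimulus and no length of the deprivation. They do not say whether libraries came from separate cultures or animals, so each p-value reflects the scatter among these 8 libraries alone, part or all of which may be technical. The study's title places the comparison in the context of macrophage polarization, IGF1 and the kinase p38.

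The V-ATPase is a rotary pump that spends ATP to move protons into the lysosome. Its V1 sector sits in the cytosol and splits ATP. Its V0 sector lies in the membrane and carries the protons, and the sectors can come apart and reassemble with nutrient supply. The acid it makes drives the hydrolases of the lumen and the transporters of the membrane, and in macrophages it serves the digestion of engulfed material. Many of these genes are known targets of the transcription factors TFEB and TFE3, which bind an E-box element called CLEAR (coordinated lysosomal expression and regulation).

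Promoter sequences come first because such an element is a feature that several members share. Since many of these genes are known targets, the share of members that hold it is not an independent result. RefSeq promoters on GRCm38.p6, from 250 bases before to 50 bases after the start, were at hand for 23 members, all but Atp6v0a2, Atp6v0d2, Atp6v1b2, Atp6v1c1, Atp6v1g1, Atp6v1h and Npc1. The motif TCACGTG, searched on both strands and so also as CACGTGA, was present in 9 of the 23 (39.1%). It was present in 4.29% of the 27025 genes with a promoter in the table and in 7.16% of the 9428 of these that were expressed well enough to be tested. The core CACGTG alone was in 8.09% of all genes, and the palindrome TCACGTGA, which contains both 7-letter forms, was in 7 of the 23 members (30.4%) against 1.12% of all genes and 2.27% of those tested. These matches describe the letters in this window and do not show that a factor binds there.

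The stretch from 150 bases before the start to 20 bases after it is shown for 6 of the 9, in lower case with the matches in capitals. Lamp1 held the most matches, Mcoln1 and Atp6v0b held 2 each, Atp6v1a and Atp6v0e 1 each, and Atp6v0d1 is shown because it holds the palindrome across its start while its transcript did not pass the test. Lamp1 lies at chr8:13159011-13159180, plus strand, and Mcoln1 at chr8:3500369-3500538, plus strand. Atp6v0b lies at chr4:117887310-117887479, minus strand, and Atp6v1a at chr16:44139240-44139409, minus strand. Atp6v0e lies at chr17:26676246-26676415, plus strand, and Atp6v0d1 at chr8:105566045-105566214, minus strand. Each is written from 5′ to 3′ on the gene's own strand.
Lamp1: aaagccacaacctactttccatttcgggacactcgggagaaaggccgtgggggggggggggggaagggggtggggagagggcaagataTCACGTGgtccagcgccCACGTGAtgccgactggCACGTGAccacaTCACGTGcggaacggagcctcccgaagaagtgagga
Mcoln1: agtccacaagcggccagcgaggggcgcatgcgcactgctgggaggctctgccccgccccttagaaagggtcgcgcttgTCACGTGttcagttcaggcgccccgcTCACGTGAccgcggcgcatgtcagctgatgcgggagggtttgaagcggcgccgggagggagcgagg
Atp6v0b: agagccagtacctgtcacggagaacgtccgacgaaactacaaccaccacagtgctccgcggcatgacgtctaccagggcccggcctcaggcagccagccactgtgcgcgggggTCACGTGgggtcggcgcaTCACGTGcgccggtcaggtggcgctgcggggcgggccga
Atp6v1a: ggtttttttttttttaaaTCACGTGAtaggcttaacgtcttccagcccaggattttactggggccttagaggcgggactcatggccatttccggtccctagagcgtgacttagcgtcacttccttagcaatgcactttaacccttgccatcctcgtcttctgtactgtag
Atp6v0e: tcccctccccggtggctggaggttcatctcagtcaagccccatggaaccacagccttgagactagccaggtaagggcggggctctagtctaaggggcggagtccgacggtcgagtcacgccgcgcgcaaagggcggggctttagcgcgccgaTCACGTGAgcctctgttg
Atp6v0d1: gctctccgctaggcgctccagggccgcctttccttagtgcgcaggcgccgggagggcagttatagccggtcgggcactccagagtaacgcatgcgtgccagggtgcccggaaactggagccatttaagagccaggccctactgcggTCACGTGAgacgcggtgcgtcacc

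In Lamp1 the 4 core matches began at -61, -45, -28 and -15 from the start, all on the upstream side. The other 3 genes with a match were Clcn7, Cln3 (at its downstream start only) and Tmem55b. The map of matches by distance from the start shows how close to it most of them lie.

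**Figure D1:**
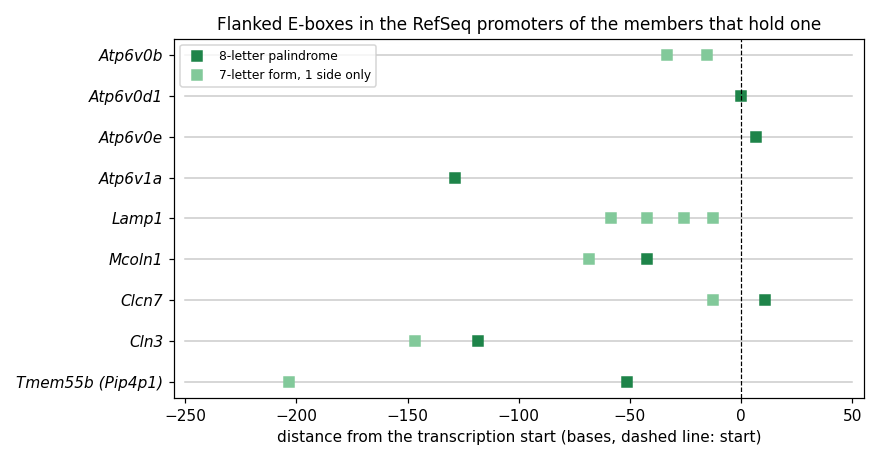
Position of each flanked E-box (squares) along the RefSeq promoters (grey lines, from 250 bases before the start to 50 after) of the 9 members that hold one; the horizontal axis is the distance from the transcription start in bases. Dark squares are the 8-letter palindrome and light squares the 7-letter form on 1 side only; Lamp1 has 4 matches within the last 61 bases before its start.

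Levels are given as CPM, the count relative to a library total scaled by TMM normalisation, and changes as the log2 ratio of the serine/glycine-free to the control group, with its standard error (SE). Tests were edgeR's quasi-likelihood F test with Benjamini-Hochberg adjustment over all 11700 genes tested, and a gene was called past an adjusted p of 0.05. Library totals lay between 17565291 and 18201599 counts. The 30 members took 0.974% to 0.994% of all counts in the control libraries and 1.08% in each serine/glycine-free library. The first principal component held 44.9% of the variance and separated the groups.

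Without serine and glycine most of these transcripts were modestly higher. Of the 30 members, 21 rose, 1 fell and 8 did not pass. Among all genes tested, 15.9% were called higher and 17.3% lower. The members' median log2 change was 0.11, against 0.0074 over all genes tested. The rises ran from 1.05-fold (Lamp1) to 1.55-fold (Atp6v0d2). In CPM, every serine/glycine-free library lay above every control library in 20 members. In 1 every one lay below, and in 9 the groups overlapped, where 30.7% of all tested genes did not overlap in either direction. In bulk RNA a change of transcripts per cell cannot be told apart from a change in the share of cells that carry them. By sector, 8 of 8 V1 genes, 4 of 8 V0 genes, 1 of 2 accessory genes and 8 of 12 genes of other membrane proteins rose. The median log2 changes were 0.12 for V1, 0.08 for V0, 0.08 for the accessory pair and 0.11 for the other membrane proteins.

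**Figure D2:**
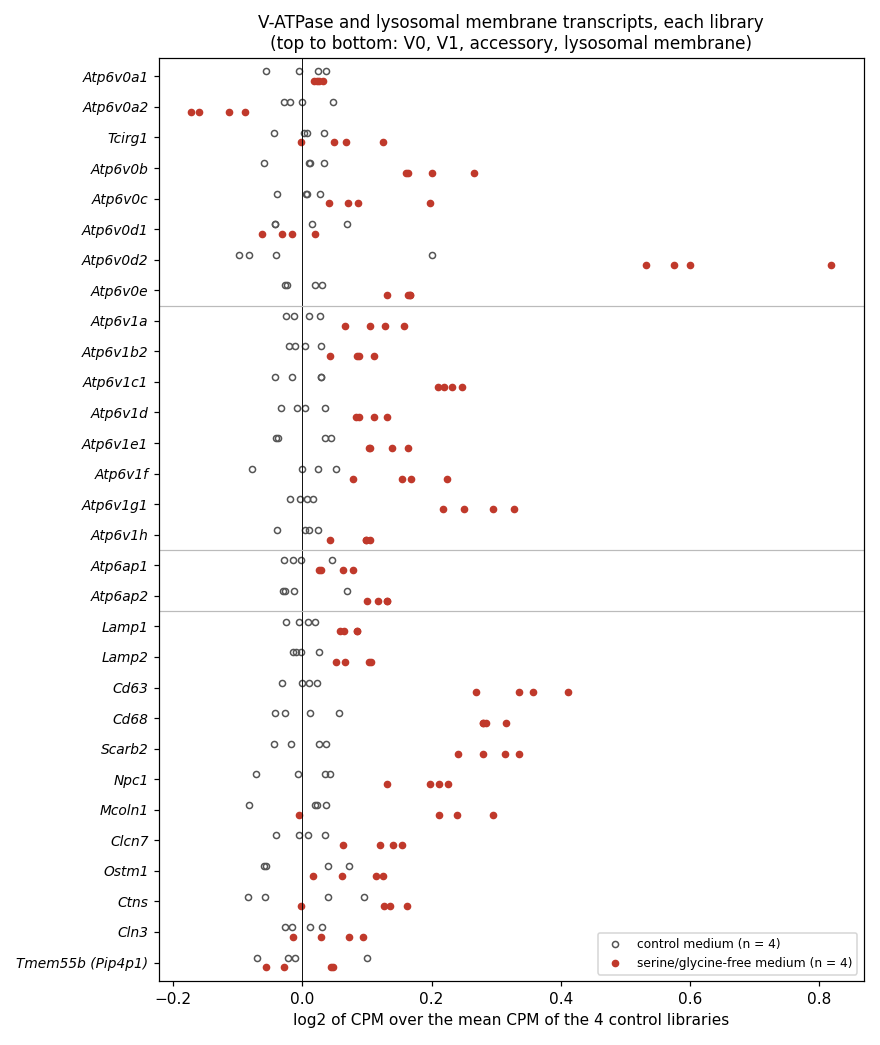
Each point is 1 library, as log2 of its CPM over the mean CPM of the 4 control libraries (horizontal axis), for the 30 members in rows (open grey: control, n = 4; red: serine/glycine-free, n = 4). The V1 rows show no overlap between the groups, while Atp6v0a2 is the 1 row with all red points to the left of the grey ones.

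The labelled cell type and other cells were checked through marker lists. All 8 macrophage markers were present, with a summed level of 18140 to 18650 CPM in control and 17920 to 18230 CPM in serine/glycine-free libraries. Within that list 3 rose (Csf1r, Lyz2 and Mertk) and 5 fell (Adgre1, Cd14, Fcgr1, Itgam and Mrc1). The shares over all genes tested were 15.9% called higher and 17.3% lower. Neutrophil, dendritic cell, fibroblast, T or NK cell and mast cell lists each summed to at most 2.39 CPM in any library. The T or NK cell sum rests on 3 of 7 listed genes and the mast cell sum on 2 of 6, since the others had no row. The neutrophil sum was 0.827 to 1.17 CPM in control and 2.05 to 2.39 CPM in serine/glycine-free libraries, most of it S100a8. The B cell list summed to 43.5 to 51.3 CPM in control and 32.1 to 38.9 CPM in serine/glycine-free libraries, nearly all of it Cd79b, and the erythroid and megakaryocyte list to 14.5 to 16.5 CPM, nearly all of it Pf4.

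Within V0, the proteolipid ring is the rotor that carries protons across the membrane. Atp6v0b encodes the c″ proteolipid (Entrez 114143, chr4:117884330-117887333). It stood at 208, 207, 198 and 211 CPM in control libraries 1 to 4 and at 237, 230, 231 and 248 CPM in serine/glycine-free libraries 1 to 4. All 4 of the latter were higher than any control, by a log2 change of 0.20 (SE 0.029, adjusted p = 3.0e-07, edgeR). With each library's trend with transcript length removed the change was 0.13. Exons of Atp6v0b overlap the antisense gene Gm12841 over 11.8% of their bases. Atp6v0c, the main proteolipid and the V0 transcript with the highest level per length, went from 967 ± 18.8 to 1036 ± 49.9 CPM (SD, n = 4), a rise of 0.10 on the log2 scale (adjusted p = 0.0032, edgeR) without overlap between the groups.

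Atp6v0e encodes the small e subunit beside the ring (chr17:26676396-26699647). Its control values were 212, 212, 219 and 220 CPM and its serine/glycine-free values 242, 236, 242 and 242 CPM. The groups were apart, with a log2 change of 0.16 (SE 0.027, adjusted p = 6.5e-06, edgeR), or 0.07 once the trend with length was taken out (adjusted p = 0.0212).

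The a subunit holds the channels through which protons enter and leave the ring, and its isoforms send the pump to different membranes. Tcirg1 encodes a3, the isoform of the lysosome and of the osteoclast's resorbing membrane. Its values were 390, 382, 383 and 370 CPM in control and 380, 399, 394 and 415 CPM in serine/glycine-free libraries. The groups overlapped, and Tcirg1 did not pass (log2 change 0.06, 95% interval 0.01 to 0.11, adjusted p = 0.077, edgeR). It passed on library size alone (0.0402), with the trend with expression removed (0.00045) and without serine/glycine-free replicate 1 (0.0217).

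Atp6v0a1 likewise overlapped, with control values of 187, 191, 192 and 180 CPM and serine/glycine-free values of 192, 191, 191 and 190 CPM (log2 change 0.02, interval -0.03 to 0.08, adjusted p = 0.546, edgeR), and passed only with the expression trend removed (0.0385) among the alternatives run. Atp6v0a2, the a2 isoform found on Golgi and early endosomal membranes, was the 1 member that fell. It lies at chr5:124629052-124724455. Its control values were 98.01, 94.8, 93.1 and 93.6 CPM and its serine/glycine-free values 87.7, 84.2, 84.9 and 89.2 CPM. All 4 serine/glycine-free libraries were below all controls, with a log2 change of -0.13 (SE 0.034, adjusted p = 0.0016, edgeR). Exons of Atp6v0a2 overlap the antisense gene 4930404A12Rik over 9.86% of their bases, and the counting is not stated to use strand.

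Levels of different genes were compared per length, as deposited TPM, a level corrected for transcript length and library total. Among the a isoforms, Tcirg1 made up 69.0% ± 0.27 of the summed TPM in control and 70.1% ± 0.79 in serine/glycine-free libraries (SD, n = 4). Atp6v0a1 made up 22.5% and 22.4%, and Atp6v0a2 8.43% and 7.50%. The difference of 1.09 percentage points in the Tcirg1 share did not pass (exact two-sided permutation test, p = 0.0857, adjusted p = 0.0857 over the 2 isoform shares tested). Atp6v0a4 had at most 1 count in any library.

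The d subunit joins the ring to the central stalk. Atp6v0d1, the ubiquitous form, showed control values of 236, 245, 226 and 226 CPM and serine/glycine-free values of 223, 231, 228 and 236 CPM. The groups overlapped (log2 change -0.02, interval -0.08 to 0.03, adjusted p = 0.585, edgeR). Atp6v0d2, the form known from osteoclasts and from some macrophages, had the largest change of the 30 members. It lies on chr4:19876838-19922566 (Entrez 242341). It stood at 7.49, 7.28, 8.86 and 7.20 CPM in control and at 11.7, 11.5, 11.1 and 13.6 CPM in serine/glycine-free libraries. Each serine/glycine-free value was above the highest control, and the log2 change was 0.63 (SE 0.087, adjusted p = 8.9e-08, edgeR).

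Per length, Atp6v0d2 stayed a minor form. Its share of the d transcripts went from 1.95% ± 0.26 to 3.07% ± 0.19 of TPM (SD, n = 4), and the 2 groups of shares did not overlap. The exact two-sided permutation p was 0.0286, the smallest that 4 against 4 allows, and 0.0571 adjusted over the 2 shares, which does not pass. Of 9 osteoclast markers, 6 were tested and 1 rose, beside 15.9% called higher and 17.3% lower over all genes tested. The 1 that rose was Ctsk, at 0.754 and 1.19 CPM and 9 to 28 counts (adjusted p = 0.0452, edgeR). Its call was lost with the length trend removed (0.0562). The 2 that fell were Acp5, from 176 to 165 CPM, and Nfatc1, from 89.7 to 72.7 CPM. Mmp9, at 55.6 and 55.1 CPM, and Itgb3, at 1.40 and 1.89 CPM, did not pass. The summed level of the list was 316 to 331 CPM in control and 293 to 304 CPM in serine/glycine-free libraries. Nearly all of it was Acp5, Nfatc1 and Mmp9, so the sum says little about the rarer markers. Calcr and Oscar had at most 1 and 2 counts in any library, and Ocstamp and Dcstamp stayed under 1 CPM. The part of such cells in the Atp6v0d2 change was not tested.

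**Figure D3:**
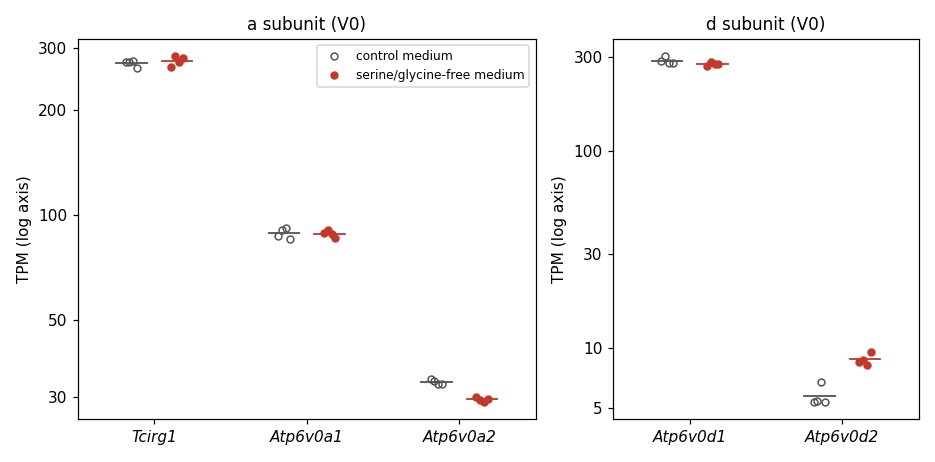
TPM per library on log axes for the isoforms of the a subunit (left) and the d subunit (right), with 4 control libraries (open grey) and 4 serine/glycine-free libraries (red); short lines are group means. Atp6v0d2 and Atp6v0a2 separate the groups in opposite directions while Tcirg1, Atp6v0a1 and Atp6v0d1 overlap.

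In V1, all 8 subunits were higher, and in CPM none of them overlapped between the groups. Over all genes tested, 15.9% were called higher, and 30.7% did not overlap in either direction. In TPM, serine/glycine-free replicate 4 lay under the highest control for Atp6v1a (269 against 274), Atp6v1b2 (596 against 622) and Atp6v1h (115 against 119). The catalytic pair comes first: Atp6v1a, which binds and splits ATP, went from 564 ± 9.23 to 610 ± 16.5 CPM (SD, n = 4), a log2 change of 0.11 (adjusted p = 0.00021, edgeR). Atp6v1b2, the B isoform of most cells and its nucleotide-binding partner, rose from 866 ± 13.2 to 916 ± 17.6 CPM (0.08, adjusted p = 0.0043, edgeR). Atp6v1b1, the renal B isoform, and Atp6v1e2, a testis form of E, had at most 1 count in any library. Per length, Atp6v1b2 and Atp6v1f had the highest V1 levels in control, at 606 and 533 TPM, and Atp6v1h the lowest, at 117 TPM.

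The peripheral stalks hold the catalytic head still while the rotor turns. Atp6v1g1, the G subunit of those stalks, had the largest V1 change and lies at chr4:63544765-63550701. Its values were 171, 172, 169 and 173 CPM in control and 204, 199, 215 and 210 CPM without serine and glycine. The lowest of the latter was well above the highest control, at a log2 change of 0.27 (SE 0.029, adjusted p = 1.2e-10, edgeR). Its partner Atp6v1e1 stood at 229, 230, 218 and 217 CPM in control and 240, 240, 246 and 250 CPM in serine/glycine-free libraries. That was a smaller separation, with a log2 change of 0.13 (SE 0.028, adjusted p = 0.00029, edgeR), or 0.07 once the trend with length was taken out (adjusted p = 0.0178).

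Atp6v1c1 encodes C1, the subunit that links the stalks to V0 and is released when the sectors come apart; it lies at chr15:38661904-38692444. It stood at 188, 194, 185 and 194 CPM in control and at 226, 220, 222 and 224 CPM without serine and glycine. Its libraries were tightly grouped on either side, and its log2 change was 0.23 (SE 0.027, adjusted p = 5.0e-09, edgeR). Atp6v1h, the other regulatory subunit, went from 126 to 133 CPM (0.09, adjusted p = 0.0231, edgeR). That call was lost with the replicate number as a block (adjusted p = 0.0509), in DESeq2 (0.0578), without a filter (0.0637), with the length trend removed (0.0544), and without control replicate 3 (0.0904) or serine/glycine-free replicates 1 (0.0544), 2 (0.0534) or 3 (0.0621).

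The central stalk turns inside the catalytic head. Its F subunit Atp6v1f stood at 145, 143, 135 and 148 CPM in control and at 160, 151, 159 and 167 CPM in serine/glycine-free libraries. The nearest values of the groups lay close together, 148 and 151 CPM, and the log2 change was 0.16 (SE 0.032, adjusted p = 0.00013, edgeR). Its partner Atp6v1d rose by 0.10 on the log2 scale (adjusted p = 0.0043, edgeR), from 144 to 154 CPM.

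The accessory proteins help the pump to assemble in the endoplasmic reticulum. Atp6ap2, also known as the prorenin receptor, stood at 262, 281, 262 and 265 CPM in control and at 293, 287, 293 and 290 CPM without serine and glycine. In CPM the groups did not overlap, although control replicate 2 came close, and the log2 change was 0.12 (SE 0.027, adjusted p = 0.00039, edgeR). In TPM, control replicate 2 (231) lay above serine/glycine-free replicate 4 (226). Atp6ap1 stood at 420, 438, 424 and 416 CPM and at 432, 448, 443 and 433 CPM. These groups overlapped and did not pass (0.05, interval -0.0012 to 0.10, adjusted p = 0.129, edgeR), except with the expression trend removed (0.000663).

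Summed over each class, TPM went from 3485 ± 26.9 to 3665 ± 50.7 for V0, from 2624 ± 34.4 to 2833 ± 40.8 for V1 and from 4792 ± 16.3 to 5365 ± 71.8 for the other lysosomal membrane proteins (SD, n = 4). For the accessory pair the sum went from 595 ± 18.8 to 614 ± 16.9, and the groups overlapped. These sums are dominated by a few abundant members, Atp6v0c in V0 and Lamp1 and Cd68 in the membrane class, and were not tested.

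**Figure D4:**
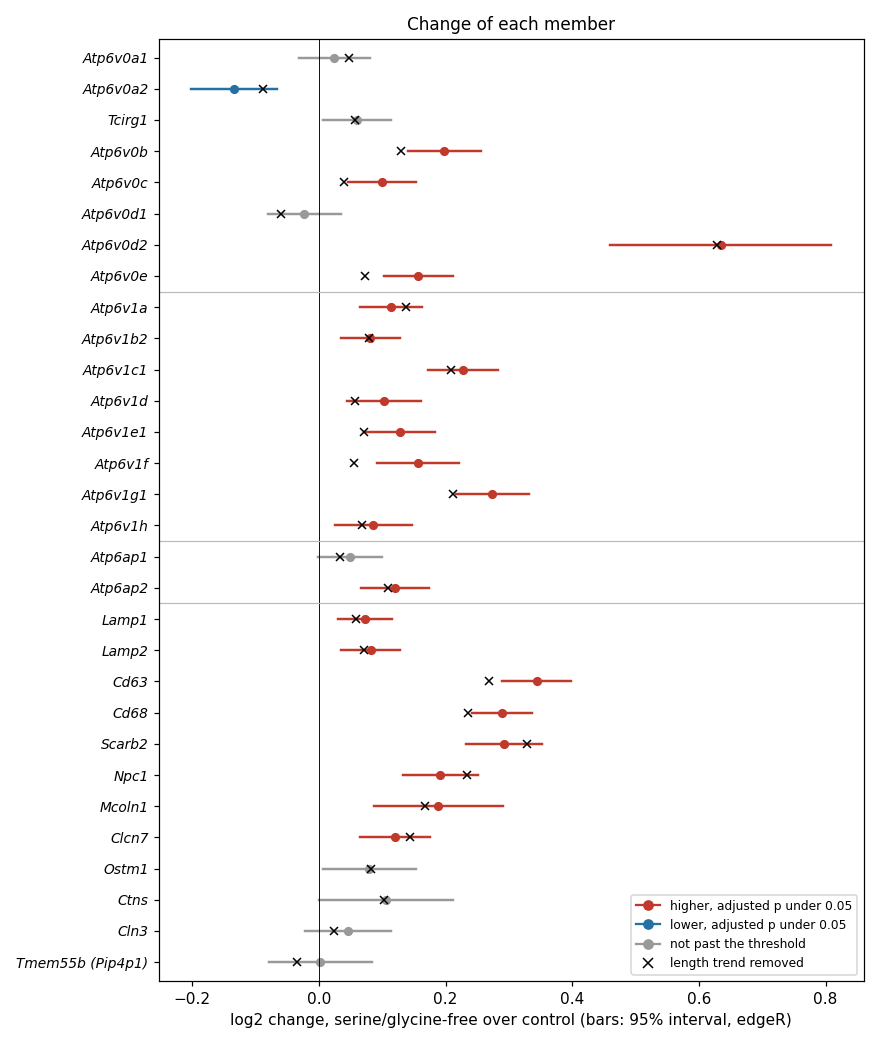
Log2 change of each member, serine/glycine-free over control (circles, with 95% intervals from edgeR as bars), coloured by call, and the same value after each library's trend with gene length was removed (crosses). The bars of 21 members are red, 1 is blue and 8 are grey, and Atp6v0d2 at 0.63 lies farthest from 0.

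Among the other lysosomal membrane proteins, the 4 largest rises were those of Cd63, Scarb2, Cd68 and Npc1, between 0.19 and 0.34 on the log2 scale. Cd63 is a tetraspanin of late endosomes and lysosomes (chr10:128896231-128912822). It stood at 324, 326, 317 and 329 CPM in control and at 415, 390, 409 and 431 CPM in serine/glycine-free libraries. The groups were far apart, with a log2 change of 0.34 (SE 0.027, adjusted p = 3.6e-14, edgeR). Cd68, or macrosialin, is a LAMP-family protein used as a macrophage marker. Its values were 890, 831, 862 and 840 CPM in control and 1042, 1039, 1038 and 1064 CPM without serine and glycine. The lowest serine/glycine-free library was above every control, with a log2 change of 0.29 (SE 0.023, adjusted p = 9.0e-14, edgeR).

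Scarb2, which encodes LIMP-2, the carrier of glucocerebrosidase to the lysosome, lies at chr5:92441311-92505657. It stood at 141, 137, 142 and 134 CPM in control and at 163, 174, 172 and 168 CPM in serine/glycine-free libraries. No library overlapped, and the log2 change was 0.29 (SE 0.030, adjusted p = 6.2e-11, edgeR). Npc1, the transporter that passes cholesterol out of the lysosome, stood at 182, 196, 190 and 197 CPM in control and at 221, 224, 219 and 209 CPM without serine and glycine. All 4 of the latter were higher (0.19, SE 0.029, adjusted p = 8.7e-07, edgeR). Estimated counts of Npc1 were not whole in 4 libraries, as happens where reads are divided between loci that share sequence.

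Lamp1 and Lamp2, the heavily glycosylated proteins that line the inner face of the membrane, had small changes. Lamp1, the member with the highest CPM, went from 1750 ± 23.3 to 1840 ± 17.5 CPM (SD, n = 4; log2 change 0.07, adjusted p = 0.0061, edgeR), and 9.31% of its exonic bases overlap Grtp1 on the other strand. Lamp2 went from 652 ± 8.04 to 690 ± 12.8 CPM (0.08, adjusted p = 0.0048, edgeR). Both rose without overlap between the groups in CPM, by about 1.05-fold and 1.06-fold. In TPM, serine/glycine-free replicate 4 lay among the controls for both, at 1514 for Lamp1 and 542 for Lamp2.

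Among ion channels and transporters, Mcoln1 encodes the calcium channel TRPML1 of the lysosome. Its control values were 56.6, 56.0, 56.1 and 52.2 CPM and its serine/glycine-free values 55, 67.7, 63.9 and 65.2 CPM. It rose (0.19, SE 0.050, adjusted p = 0.0041, edgeR) but serine/glycine-free replicate 1 lay among the controls. Clcn7, the chloride and proton exchanger, went from 242 ± 5.28 to 263 ± 7.25 CPM (SD, n = 4; 0.12, adjusted p = 0.00049, edgeR). Its groups did not overlap in CPM, but in TPM serine/glycine-free replicate 3 (115.4) lay under control replicate 3 (116.4).

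The remaining 4 did not pass. Ostm1, the subunit that stabilizes Clcn7, changed by 0.08 (interval 0.01 to 0.15, adjusted p = 0.0893, edgeR), and passed with the length trend removed (0.0485), with the expression trend removed (0.0134) and without control replicate 2 (0.0414). Ctns, the exporter of cystine from the lysosome, changed by 0.11 (interval 0.0007 to 0.21, adjusted p = 0.116, edgeR), at 28.6 and 30.8 CPM, the lowest level in the class, and passed without serine/glycine-free replicate 1 (0.0436). Cln3, the protein lost in juvenile Batten disease, changed by 0.05 (interval -0.02 to 0.11, adjusted p = 0.321, edgeR). Its counts were not whole in 8 libraries and 7.65% of its exonic bases overlap Apobr. Tmem55b, a phosphoinositide phosphatase homologue that takes part in lysosome positioning, changed by 0.0023 (interval -0.08 to 0.08, adjusted p = 0.974, edgeR), and 19.5% of its exonic bases overlap Apex1.

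The members were then divided by the promoter element shown above. Of the 9 members with the flanked E-box, 6 rose, 0 fell and 3 did not pass, with a median log2 change of 0.11. Of the 14 with a promoter and no match, 9 rose, 0 fell and 5 did not pass, with a median of 0.10. Cd63, Cd68 and Scarb2 are among them. For Cd63 only a downstream start (chr10:128909345) was searched, not the outer start of the gene at 128896231. Of the 7 with no promoter at hand, 6 rose and 1 fell, with a median of 0.19. Over all genes tested, 15.9% were called higher and 17.3% lower. Calls among all tested genes that hold the E-box were not counted. None of the 4 genes of the MiT/TFE family, which encode the factors that read this element, was called higher. Tfe3 fell from 217 ± 3.80 to 201 ± 4.77 CPM (SD, n = 4; -0.11, adjusted p = 0.0014, edgeR). Tfeb stood at -0.05 (adjusted p = 0.522), Mitf at 0.07 (0.164) and Tfec at -0.08 (0.691). Mitf passed with the length trend removed (0.11, adjusted p = 0.0196). Transcript levels do not measure the activity of these factors, which was not tested.

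The other genes of the pathway were read against the shares over all genes tested, 15.9% called higher and 17.3% lower. Of 12 listed genes for assembly and regulation of the pump, 11 were tested, 2 rose, 1 fell and 8 did not pass, with a median log2 change of -0.05, and these counts lie near those shares. Dmxl2, a rabconnectin that promotes joining of V1 to V0, rose from 41.6 ± 3.51 to 50.3 ± 3.68 CPM (0.28, adjusted p = 0.00056, edgeR), and Tmem199, an assembly factor of the endoplasmic reticulum, rose by 0.18 (adjusted p = 0.0104), a call lost with the length trend removed (0.0571). Tmem9, a lysosomal protein that binds the pump, fell by 0.17 on the log2 scale (adjusted p = 0.0080). The minor isoforms Atp6v0e2 (0.09, adjusted p = 0.703) and Atp6v1g2 (0.27, adjusted p = 0.147) did not pass.

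Of 30 further genes of the lysosomal membrane, 28 were tested, 9 rose, 3 fell and 16 did not pass, with a median of 0.06, beside the same 15.9% higher and 17.3% lower over all genes. Npc2, the soluble partner of Npc1 that this list also held, rose from 527 ± 9.504 to 680 ± 25.0 CPM (SD, n = 4; 0.37, adjusted p = 6.2e-16, edgeR). Laptm5, a lysosomal membrane protein of blood cells, fell from 2818 ± 63.9 to 2480 ± 72.9 CPM (-0.18, adjusted p = 6.2e-09). Tpcn1, an ion channel of endosomes and lysosomes, fell from 168 ± 1.67 to 144 ± 3.46 CPM (-0.23, adjusted p = 1.6e-08).

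Transcript length moved with the changes. Over all genes tested, the shortest 2925 (effective length up to 1691 bases) had a median log2 change of 0.06 and 22.8% called higher, and the longest 2925 (4105 bases and over) had -0.05 and 11.5%. The members are short, with a median effective length of 2000 bases against 2716 for all genes tested and 1602 for V1. With each library's trend with length removed, 18 members were called higher, 1 lower and 11 neither, with a median of 0.08 against 0.004 for all genes. Over all 11700 genes, 1862 were then called higher and 1991 lower. V1 had 5 of 8 higher and its median went from 0.12 to 0.08. V0 had 3 of 8 higher and its median went from 0.08 to 0.05. The other membrane proteins had 9 of 12 higher with a median of 0.12, so that V1 no longer had the highest class median. Atp6v1f went from 0.16 to 0.06 (adjusted p = 0.101, edgeR), Atp6v1d from 0.10 to 0.06 (0.0829) and Atp6v0c from 0.10 to 0.04 (0.113), and these calls were lost. Atp6v1h, also lost, changed less, from 0.09 to 0.07 (0.0544). Atp6v0d2 (0.63), Scarb2 (0.33), Cd63 (0.27), Cd68 (0.24) and Npc1 (0.23) kept their calls, as did the fall of Atp6v0a2 (-0.09, adjusted p = 0.0281).

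**Figure D5:**
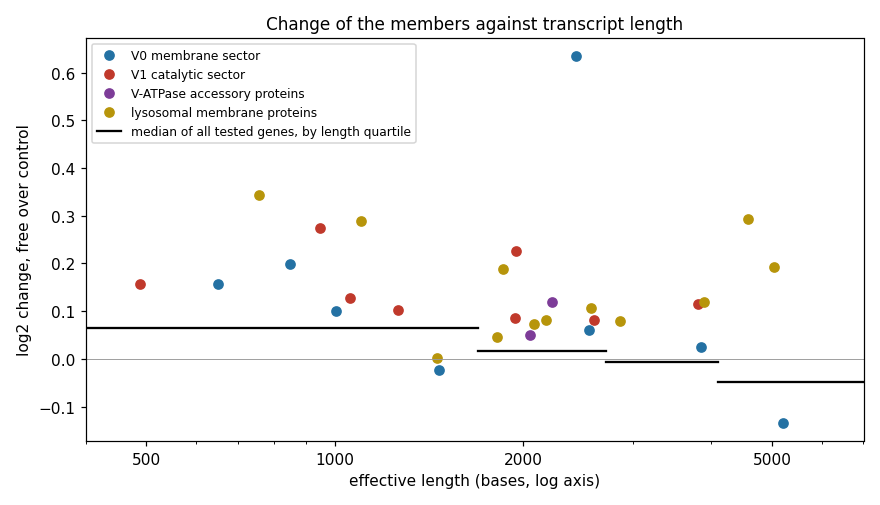
Log2 change of the 30 members (points, coloured by class) against effective length in bases on a log axis, with the median change of all 11700 tested genes in each length quartile as black lines. The black lines step down from 0.06 to -0.05 as length rises; Atp6v0d1, Tmem55b and Atp6v0a2 are the points below the line of their own length.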

How the data were processed

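Per the labels' protocols, total RNA came from Trizol extraction and oligo-dT beads were used for the libraries. The authors deposited 1 table of estimated counts, FPKM and TPM per library. The submitters' processing notes name BWA, Bowtie2, RSEM and GRCm38.p6, without versions or roles. The authors' estimated counts, 8.06% to 8.47% of them fractional in a library (tolerance 1e-06), were rounded and used for all gene tests. The deposited FPKM gave each gene's effective length, by its ratio to the counts. TPM, as the authors deposited it, served to compare genes per length and to restate the overlap of some members. The deposited group averages were not used. Estimated counts divide reads between loci that share sequence, and the counting is not stated to use strand.

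Genes were filtered with edgeR's filterByExpr (minimum count 10, minimum total 15), which left 11700 of 17492, and scaled by TMM. The 4 serine/glycine-free and 4 control libraries (6 residual degrees of freedom) entered 1 fit across all genes in edgeR 4.0.16 (R 4.3.3). SEs derive from the F statistic. Isoform shares were compared by exact permutation over libraries. Alternatives used limma 3.58.1, DESeq2 1.42.0, other scalings and filters, and offsets that remove each library's loess trend (span 0.5) with length or expression. The tests were tried on simulated data first. The 12 within-group library pairs differed beyond sampling noise (chi-square per degree of freedom 1.41 to 3.46).

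The members and lists were chosen with earlier results of these data known. Library values are printed for the 4 largest changes past the threshold in each of V0, V1 and the membrane class, the accessory pair, falls, and a and d isoforms, and for Mcoln1, chosen after its values were seen. Pathway lists are named by up to 3 genes with the smallest adjusted p. Coordinates and promoters are RefSeq's on GRCm38.p6.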

Additional observations from a re-analysis of the deposited data

Results flagged for a closer look

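Of 60 sets of 4 libraries (30 members in 2 groups), 5 had a library far from the other 3, where chance alone flags about 1 in 20. Atp6v0e stood at 236.3 CPM in serine/glycine-free replicate 2 and at 242 CPM in the others. Atp6v1h stood at 129.2 CPM in serine/glycine-free replicate 4, against 134 to 135 CPM. Cd68 stood at 1064 CPM in the same library, against 1038 to 1042 CPM. Atp6ap2 stood at 280.5 CPM in control replicate 2, against 262 to 265 CPM, and Mcoln1 at 52.15 CPM in control replicate 4, against 56.0 to 56.6 CPM.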

How the results depend on the processing

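Under 19 alternatives the count of members that rose lay between 17 (replicate block with the length trend removed) and 25 (expression trend removed), and 1 fell in each. Over all genes, 1779 were called higher and 1906 lower with the block and the length trend removed. With the expression trend removed these counts were 2004 and 1729, and in the main fit 1855 and 2027. Of the 22 members past the threshold, 18 kept direction and call throughout; the exceptions were Atp6v0c, Atp6v1d, Atp6v1f and Atp6v1h. V1 genes higher numbered 5 of 8 with the length trend removed, with and without the block, and 7 or 8 otherwise. Tmem55b and Atp6v0d1, both near 0, changed sign without passing the threshold. Tmem55b went to -0.0063 without a filter, -0.0345 with the length trend removed and -0.0343 with the block as well, and lay between -0.0211 and 0.0368 with 1 library left out. Atp6v0d1 went to 0.0289 with the expression trend removed, and lay between -0.0377 and 0.0002 with 1 library left out.

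The share of Atp6v0d2 rose by 1.03 to 1.25 percentage points with 1 library left out, and that of Tcirg1 by 0.813 to 1.44. Both passed without serine/glycine-free replicate 1 (1.13 and 1.44 points, exact permutation adjusted p = 0.0286), and no other alternative for the shares did. The smallest exact p is 0.0286 for 3 against 4 libraries as well. Whether the Atp6v0d2 share passed was therefore set by the p of the Tcirg1 share. From counts not divided by length the Atp6v0d2 difference was 1.75 points (adjusted p = 0.0571). With the replicate block, 20 members rose and 1 fell (1771 and 1884 over all genes). Deviations of same-numbered libraries correlated between -0.094 and 0.061, and 2 of 8 libraries were closest to their own number, so the numbers were not taken as pairs. With 4 libraries a group, changes of a few percent lie near the limit of detection.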
